A study of Mus musculus with 1 sample.

Results

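The vacuolar ATPase and lysosomal membrane genes were examined in ventral midbrain (VM)-derived mixed glia, the culture in which the study tested inhibition of serum- and glucocorticoid-regulated kinase 1. Members were taken by name. They were the rows whose symbol begins with Atp6v0, Atp6v1 or Atp6ap, without pseudogene rows, together with 16 named genes of the lysosomal membrane and its transcriptional control. This gave 41 genes among the 23282 rows of the table, of which 25 were Atp6 genes, 13 encoded other lysosomal membrane proteins and 3 encoded transcription factors. The data were 1 RNA-seq library labelled as the control, from the VM of ICR(CD-1) outbred mice at postnatal day 5, grown as primary mixed glia without the kinase inhibitor. In the study the control received the DMSO vehicle. Glia that received the inhibitor are not analysed here, so there was no contrast between groups, and none of the values has a replicate or an error between cultures. How many pups contributed to the culture was not stated in the sources used here.

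Lysosomes digest material taken up by endocytosis, phagocytosis and autophagy, and their enzymes need an acid lumen. The vacuolar ATPase makes it acid. Its cytosolic V1 sector hydrolyses ATP and turns a rotor, and its membrane V0 sector carries protons across the membrane. Several subunits are encoded by more than 1 gene, and some of these paralogs are known from specialised acid-secreting or other restricted cell types. Heavily glycosylated proteins such as LAMP1 line the inside of the membrane, while transporters and channels move amino acids, lipids and ions out of the lumen. The factors TFEB, TFE3 and MITF bind E-box sequences in promoters of lysosomal genes and are known as regulators of the organelle in many tissues, including microglia and astrocytes.

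Promoter sequences that these factors are known to recognise are shown first. RefSeq promoter sequences (GRCm38.p6, 250 bases before to 50 bases after each transcription start) were matched by symbol for 32 of the 41 genes, with 42 promoters between them. The genes without an entry were Atp6ap1l, Atp6v0a2, Atp6v0d2, Atp6v1b2, Atp6v1c1, Atp6v1g1, Atp6v1h, Laptm4b and Npc1. Of the 32 genes, 5 (15.6%) held the 8-letter motif TCACGTGA, against 1.12% of all 27025 genes of the promoter table and 1.98% of the 11613 that were detected in this library. They were Atp6v0d1, Atp6v0e, Atp6v1a, Cln3 and Mcoln1. The 6-letter core CACGTG was found for 7 genes (21.9%), against 8.09% of all genes and 11.1% of detected genes. Each of these 7 also held the 7-letter form TCACGTG on either strand (4.29% of all genes, 6.48% of detected genes), and the added genes were Atp6v0b and Lamp1. Both strands were searched, and the 3 motifs are nested, so a gene with the longest also holds the shorter ones. The median GC content was 57.2% in the member promoters against 52.7% in all promoters and 60% in those of detected genes. A match is a description of the letters and was not tested for binding. The motif was chosen because these factors are known to bind it in promoters of lysosomal genes. A higher share in these genes than in all genes is therefore no independent result.

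The promoters of the 3 highest genes with TCACGTGA are printed in full with the motif in capitals. They are followed by Lamp1, added after its 4 sites were seen, where the capitals mark the 7-letter form.
Atp6v0d1 (chr8:105566015-105566314, minus strand): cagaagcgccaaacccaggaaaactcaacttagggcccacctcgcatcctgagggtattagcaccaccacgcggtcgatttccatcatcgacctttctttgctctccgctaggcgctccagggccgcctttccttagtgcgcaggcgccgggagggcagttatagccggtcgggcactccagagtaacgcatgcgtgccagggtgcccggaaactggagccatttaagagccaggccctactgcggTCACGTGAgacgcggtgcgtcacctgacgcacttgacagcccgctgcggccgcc
Atp6v0e (chr17:26676146-26676445, plus strand): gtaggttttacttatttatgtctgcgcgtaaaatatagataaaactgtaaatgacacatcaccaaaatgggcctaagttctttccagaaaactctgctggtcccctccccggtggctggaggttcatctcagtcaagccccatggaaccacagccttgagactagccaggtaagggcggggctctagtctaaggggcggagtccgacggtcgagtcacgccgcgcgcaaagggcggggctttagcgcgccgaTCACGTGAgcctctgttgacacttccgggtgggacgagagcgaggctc
Atp6v1a (chr16:44139210-44139509, minus strand): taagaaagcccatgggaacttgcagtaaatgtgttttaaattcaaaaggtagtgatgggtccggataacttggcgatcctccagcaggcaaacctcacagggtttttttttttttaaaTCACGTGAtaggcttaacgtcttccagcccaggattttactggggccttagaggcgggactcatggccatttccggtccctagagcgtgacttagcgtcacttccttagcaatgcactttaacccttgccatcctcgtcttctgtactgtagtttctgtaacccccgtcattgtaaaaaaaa
Lamp1 (chr8:13158911-13159210, plus strand): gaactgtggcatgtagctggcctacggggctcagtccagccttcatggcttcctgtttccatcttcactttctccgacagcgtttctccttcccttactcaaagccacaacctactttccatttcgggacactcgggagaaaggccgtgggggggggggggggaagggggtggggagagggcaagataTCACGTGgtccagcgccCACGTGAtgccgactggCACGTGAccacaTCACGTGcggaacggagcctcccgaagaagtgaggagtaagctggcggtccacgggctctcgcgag

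The Lamp1 promoter held 4 core sites, and 6 of the 27025 genes (0.0222%) held at least 4. Shares by number of sites were not computed for detected genes. The centres of the Lamp1 sites lay at -58, -42, -25 and -12 relative to the RefSeq start. In Atp6v0d1 the motif centre fell on the start itself, and in Atp6v0e it lay 6 bases after the start. In Atp6v1a it lay at -128. For the remaining genes, 30 bases around each site are shown, because the flanking letters differ while the capitals are shared. Atp6v0b had a pair of 7-letter sites, and Cln3 and Mcoln1 each had a 7-letter site beside the 8-letter one.
Atp6v0b, upstream site (chr4:117887348-117887377, minus strand): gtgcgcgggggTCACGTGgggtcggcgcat
Atp6v0b, site nearer the start (chr4:117887330-117887359, minus strand): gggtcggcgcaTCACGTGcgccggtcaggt
Cln3, 8-letter site (chr7:126583340-126583369, minus strand): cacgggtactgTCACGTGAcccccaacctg
Cln3, 7-letter site (chr7:126583368-126583397, minus strand): gcaaccctcaagCACGTGAtggaaggctca
Mcoln1, 8-letter site (chr8:3500462-3500491, plus strand): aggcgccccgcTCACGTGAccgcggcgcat
Mcoln1, 7-letter site (chr8:3500436-3500465, plus strand): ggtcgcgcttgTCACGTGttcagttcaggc

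At least 2 core sites in 1 promoter were present for 4 genes, namely Atp6v0b, Cln3, Lamp1 and Mcoln1, and for 0.681% of all genes. The RefSeq starts used for Atp6v0e, Cln3 and Atp6v1a lie 13165, 2581 and 446 bases inside the gene as annotated by GENCODE, so these promoters are internal to the annotated gene. The 5 genes with TCACGTGA ranged from 111 to 2429 in level per kb of exon (the unit is explained with the levels), with a median of 645. The 27 matched genes without it ranged from 0 to 21928, with a median of 807. The first range lay within the second.

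**Figure D1:**
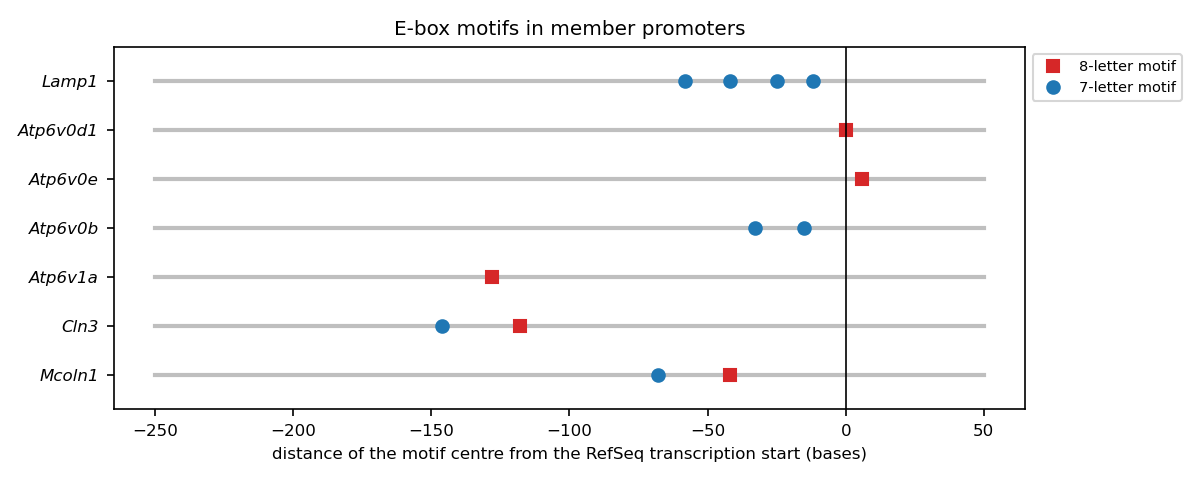
E-box motifs in the promoters of 7 genes. The x axis is the distance of the motif centre from the RefSeq transcription start in bases, grey lines span the searched window from 250 bases before to 50 after the start, red squares mark TCACGTGA and blue circles mark the 7-letter form; genes are ordered by level per kb, with the 4 Lamp1 sites clustered within 58 bases of the start.

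Levels are given in normalized read counts, the authors' values per gene, and as level per kb, which is that value divided by the length of the gene's annotated exons in kb. Ratios and levels of different genes are compared per kb, because counts of reads grow with gene length. The normalization was not given, so whether it already adjusted for length is unknown. The deposited values themselves are named as values. A gene at 10 or more was called detected. Of the 41 genes, 36 (87.8%) were detected, against 67.2% of all rows, and 4 were listed at 0. On the per kb scale 34 genes (82.9%) were above the median of detected genes (102), against 33.8% of all rows with a length. Furthermore, 15 genes (36.6%) were above the 90th percentile of detected genes (909 per kb), against 6.76% of those rows. The 41 genes are all protein-coding, while the rows of the table also include other gene types. Shares of protein-coding rows alone were not computed. The median level of all 41 genes was 587 per kb. Together they held 0.768% of the sum of all values, 0.251% from the Atp6 genes and 0.516% from the others, and the 4 highest by value (Lamp1, Cd68, Laptm5 and Cd63) held 47.2% of the members' sum. In such a bulk culture, fewer cells of a type and less RNA per cell cannot be told apart. The choice of exon length moved single genes more than it moved these counts. With the transcript of the longest coding sequence in place of all exons, 14 of the 36 detected genes came out over 2 times higher, and Atp6v0e 8.4 times higher. By that length, 33 genes were above the median of detected genes (154) and 17 were above their 90th percentile. The matching shares of all rows were not computed for that length.

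**Figure D2:**
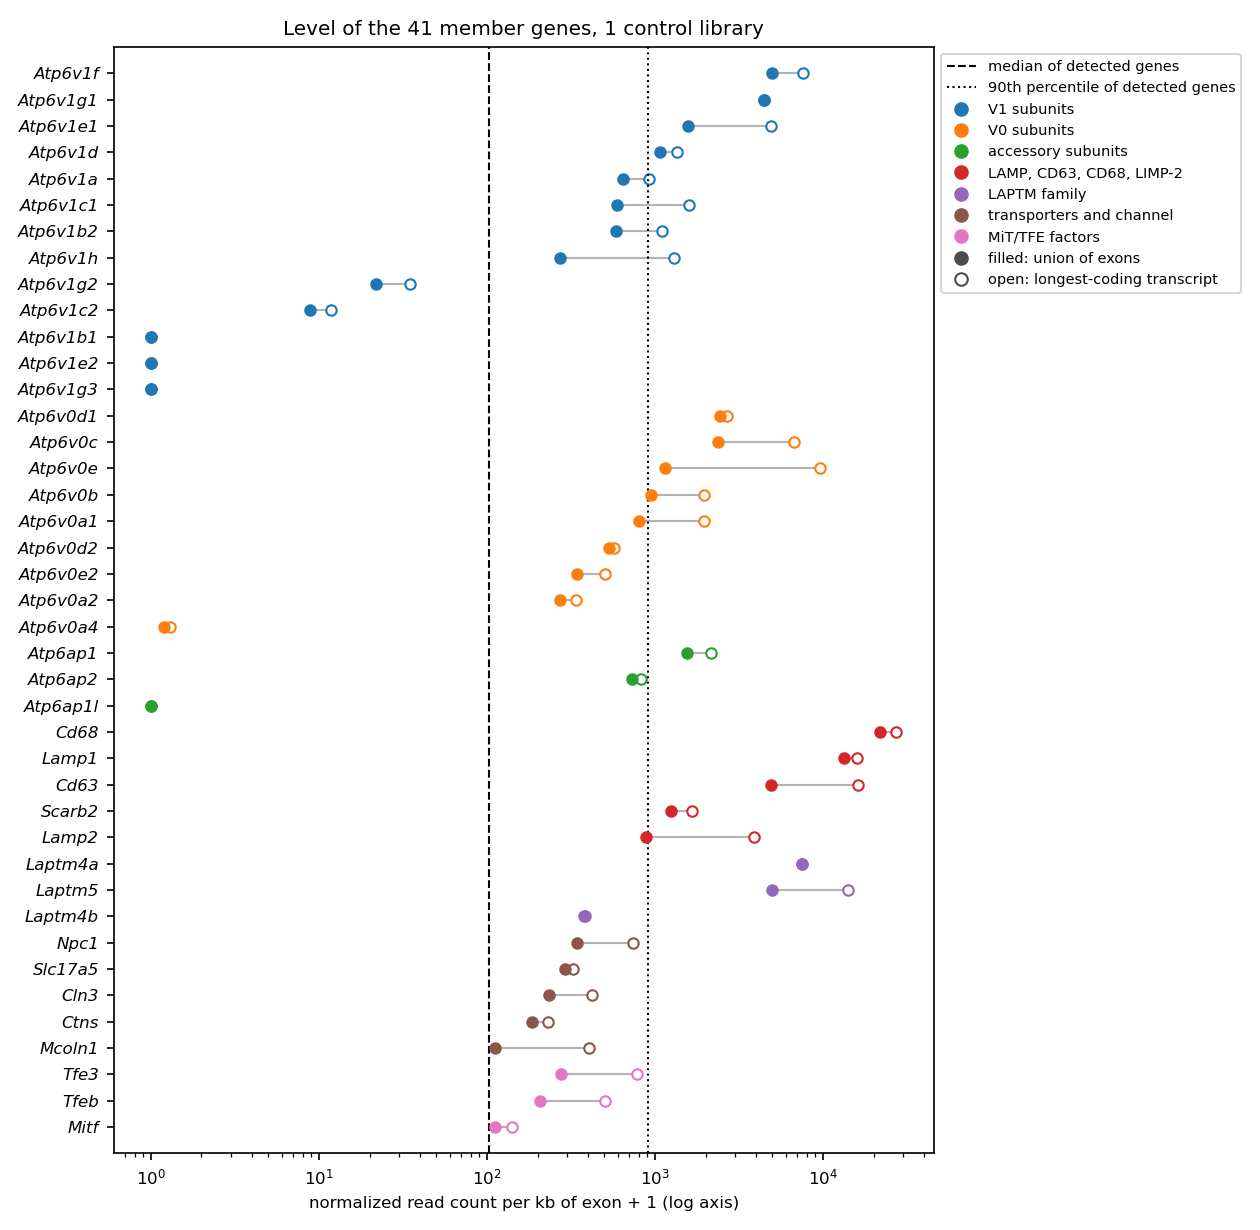
Level of each of the 41 genes in the control library, in normalized read counts per kb plus 1 on a log axis, colored by role. Filled points use the union of annotated exons, open points the transcript with the longest coding sequence, and the lines mark the median (102) and the 90th percentile (909) of detected genes on the filled scale; Cd68 and Lamp1 are highest, and 7 genes lie below the median.

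The V1 sector was present with a gene for each of its 8 subunits. The catalytic subunit A, which binds ATP together with subunit B, was encoded by Atp6v1a at 3899 (645 per kb). Its partner Atp6v1b2 was at 3112 (587 per kb). The ratio of the A to the B gene was 1.1 per kb of exon and 0.836 by the coding transcript, so their order depended on the length used. The central stalk subunits D and F, which turn inside the A and B ring, differed more. Atp6v1d was at 4923 (1070 per kb) and Atp6v1f at 5313 (4998 per kb), the highest level per kb of exon among Atp6 genes. By the coding transcript Atp6v1f was at 7558 per kb, below Atp6v0e of the V0 sector at 9620.

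The peripheral stalks hold the V1 ring in place and are built from subunits E and G. Atp6v1e1 had a value of 6458 (1571 per kb) and Atp6v1g1 a value of 5069 (4466 per kb). Subunit C joins the stalks to V0, and the subunit H regulates ATP hydrolysis when V1 comes off the membrane. Atp6v1c1 was at 3309 (591 per kb). Atp6v1h was lowest of the 8 at 2655 (272 per kb), but 1296 per kb by the coding transcript, above Atp6v1a at 921. Across the 8 leading genes the level per kb spanned 18.3 times by all exons and 8.21 times by the coding transcript. In the deposited values themselves they stayed within 2655 to 6458.

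In the V0 sector, subunits c and b (Atp6v0b) form the proton-carrying ring. Atp6v0c was at 7966 (2354 per kb), the highest undivided value among Atp6 genes, and Atp6v0b was at 1952 (952 per kb). Subunit d couples the ring to the V1 stalk, and its main gene Atp6v0d1 was at 4356 (2429 per kb). The small membrane subunit e was encoded by Atp6v0e at 4252 (1145 per kb). With its short coding transcript of 442 bases it became 9620 per kb, the highest of the Atp6 genes by that length. The sector as a whole had a median of 10.31 on the log2(level per kb + 1) scale over the highest gene of each of its 5 subunits (Tcirg1, described with the paralogs, for subunit a), against 9.70 for the 8 of V1, a V1 minus V0 difference of -0.61. Without division by length the difference was 0.01, and genes are not replicates, so no order of the sectors is drawn.

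The value of Atp6v0c is uncertain because of a near-identical copy. The row Atp6v0c-ps2, a processed pseudogene and not a member, had a value of 7930, close to the 7966 of Atp6v0c. Over the 465 coding bases of Atp6v0c the copy differed at 1 position, T111C, counted from 1 at the first coding base with the base of Atp6v0c written first. The stretch from base 91 to 131 is shown with that base in capitals.
Atp6v0c: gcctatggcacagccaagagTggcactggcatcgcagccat
Atp6v0c-ps2: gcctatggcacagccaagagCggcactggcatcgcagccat

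The copy is annotated on chromosome 6 (37806086 to 37806550) and Atp6v0c on chromosome 17 (24163866 to 24169702). In the deposited table, however, the row of the copy stood directly before Atp6v0c and directly after Amdhd2, which is also on chromosome 17 (24155833 to 24163766). Whether both rows count reads of 1 locus was not tested. Pseudogene transcripts aligning at 90% identity or more over at least 200 bases were found for 6 of the 41 genes, 10 pseudogenes in all. These genes were Atp6v0c, Atp6v1g1 (4 copies, the closest at 99.4%), Atp6v1f, Atp6v1a, Atp6ap2 and Laptm4b. Of the 10 pseudogenes, 1 (Atp6v0c-ps2) had a row. No pair of members aligned to each other at that identity and length.

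Subunits with several genes differed in how far 1 gene led. In some families a second gene was also above the median of detected genes. For subunits B, C, E and G of V1, 1 gene held nearly all of the family level. Atp6v1b1, known from kidney and inner ear, and the testis-enriched Atp6v1e2 were listed at 0, as was the kidney-enriched Atp6v1g3. Atp6v1c2 was at 17, 75.6 times below Atp6v1c1 per kb, and the neuron-enriched Atp6v1g2 was at 52, 216 times below Atp6v1g1. By the coding transcript these ratios were 147 and 131, so which of them was larger depended on the length used. Exons of both low genes overlap a gene on the opposite strand (Pdia6 at 6435 for Atp6v1c2, Nfkbil1 at 316 for Atp6v1g2). The strand setting of the counting was not stated, so reads of the 2 genes of a pair cannot be told apart there. In all, exons of 11 of the 41 genes overlap another annotated gene, 11 on the opposite strand and 1 of them (Atp6v0a4) also on its own strand.

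The subunits a, d and e of V0 were mixed. Subunit a spans the membrane beside the ring, and its isoforms are known to direct the pump to different compartments. The a3 gene carries the symbol Tcirg1 and is no member by name, but completes the family. It was at 5835 (1268 per kb, 54.1% of the family level per kb), Atp6v0a1 was at 5290 (807 per kb, 34.4%) and Atp6v0a2 at 1814 (270 per kb, 11.5%), while the kidney isoform gene Atp6v0a4 was at 1 and not detected. Tcirg1 led Atp6v0a1 by 1.57 times per kb of exon, but by the coding transcript the 2 genes were at 1919 and 1948 per kb, so their order was not settled. Atp6v0d2, known from osteoclasts, macrophages and kidney, was at 1447 (533 per kb), 4.56 times below Atp6v0d1. Atp6v0e2 was at 816 (343 per kb), 3.34 times below Atp6v0e by all exons and 19 times below by the coding transcript. Among 7 paralogs listed as restricted to few tissues, 3 were detected (Atp6v0d2, Atp6v1g2 and Atp6v1c2), and Atp6v0d2 was the one above the median of detected genes.

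**Figure D3:**
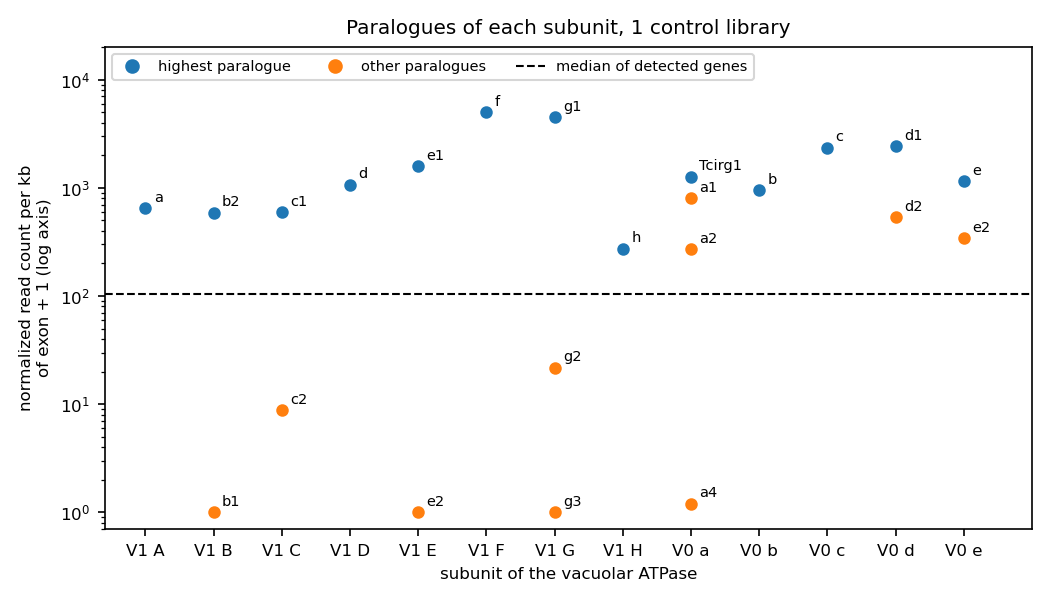
Paralogues of each vacuolar ATPase subunit in the control library. The y axis is the normalized read count per kb of exon plus 1 on a log axis, blue points are the highest gene of each of 13 subunits and orange points the other paralogs, labelled by the end of the symbol (Tcirg1 encodes a3); V1 subunits B, C, E and G show 1 high gene, while V0 subunits a, d and e show a second gene above the dashed median of detected genes.

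Of the accessory genes, Atp6ap1, whose product helps assemble V0, was at 4709 (1556 per kb). Atp6ap2, also called the prorenin receptor, was at 1918 (733 per kb), 2.12 times lower. Atp6ap1l was listed at 0. Rnasek, which encodes a further V0 component and is no member, was at 1996 (2255 per kb). Genes for assembly and regulation were lower. Of 11 such genes, 10 were detected, 5 were above the median of detected genes and none was above the 90th percentile, with a list median of 89.4 per kb. The 3 highest undivided values were those of Dmxl2 (1556, 117 per kb), Oxr1 (1201, 168 per kb) and Ccdc115 (1010, 397 per kb), and Ccdc115 was the highest of the list per kb. Tldc2 was listed at 0.

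Among the membrane glycoproteins and the tetraspanin were the 2 highest genes per kb, Cd68 and Lamp1, and the group reached from 884 to 21928 per kb. Lamp1 (chromosome 8, 13159161 to 13175338 in GRCm38), which encodes a major glycoprotein of the lysosomal membrane, had the highest undivided value of all 41 genes at 35706 and was second per kb at 13348. Cd68, a macrophage and microglia glycoprotein of the same family, was at 27563 and the highest per kb at 21928, 1.64 times Lamp1. The level of Cd68 per kb was above 99.6% of detected genes. Cd63, a tetraspanin of late endosomes and lysosomes, was at 17960 (4878 per kb), but at 16195 per kb by the coding transcript, beside 16019 for Lamp1. Lamp2, needed for fusion of autophagosomes with lysosomes and for chaperone-mediated autophagy, was at 8445 (884 per kb). Lamp1 exceeded it 15.1 times per kb of exon and 4.14 times by the coding transcript. Exons of Lamp1 overlap Grtp1 (value 18) on the opposite strand over 9.31% of their length. Scarb2, which encodes LIMP-2, the carrier of glucocerebrosidase to the lysosome, was at 7806 (1242 per kb).

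The LAPTM genes encode small proteins that span the lysosomal membrane several times, and they were uneven. Laptm5, known from hematopoietic cells, was at 18714 (4940 per kb) and Laptm4a at 13269 (7484 per kb). Their order turned by the coding transcript, where Laptm5 was at 14156 and Laptm4a unchanged at 7484 per kb. Laptm4b was at 726 (375 per kb), 20 times below Laptm4a. In other words, 2 of the 3 family genes were above the 90th percentile of detected genes and the third was not.

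Transporters and the channel of the membrane were detected at moderate levels. Npc1, which exports cholesterol from the lumen, was highest at 3864 (341 per kb). Cln3, mutated in juvenile neuronal ceroid lipofuscinosis, was at 1348 (233 per kb), Slc17a5, the sialic acid transporter, at 1048 (289 per kb) and Ctns, the cystine transporter, at 623 (184 per kb). The calcium channel gene Mcoln1 was at 839 (111 per kb), the lowest of these 5 per kb of exon, but 406 per kb by the coding transcript, above Ctns at 229. All 5 were above the median of detected genes, and none was above the 90th percentile. Exons of Cln3 overlap Apobr (value 1775) on the opposite strand over 7.65% of their length.

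Other lysosomal membrane genes, mostly channels and transporters, formed a list of 24 that are no members. It had a median of 152 per kb. Of the 24, 23 were detected, 13 were above the median of detected genes and none was above the 90th percentile. The 3 highest undivided values were those of the peptide transporter gene Slc15a3 (2772, 505 per kb), Sidt2 (2265, 440 per kb) and Abca2 (2198, 263 per kb). The metal ion transporter gene Slc11a1 was the highest of the list per kb at 525, and Lamp5, known from neurons, was listed at 0. Mcoln1 exceeded its paralogs Mcoln2 (214) and Mcoln3 (28) by 1.71 and 13.8 times per kb of exon, and by 4.78 and 43.4 times by the coding transcript. Lamp3, a dendritic cell member of the LAMP family, was at 15.

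Transcription factors of the MiT/TFE family were all detected. Tfe3 was at 2541 (274 per kb), Tfeb at 1159 (204 per kb) and Mitf at 684 (110 per kb). Tfe3 exceeded Tfeb 1.34 times per kb of exon and 1.54 times by the coding transcript, and exceeded Mitf 2.49 and 5.53 times. The fourth family gene Tfec, no member, was at 96 (17.2 per kb). By the coding transcript Mitf, at 140 per kb, was below the median of detected genes (154). RNA of genes of the lysosomal nutrient-sensing platform and of the control of these factors was also measured. Of 16 such genes, 16 were detected, with a median of 216 per kb and 15 above the median of detected genes, 3 of them above the 90th percentile. The 3 highest undivided values were those of Rragc (3981, 1192 per kb), Rheb (2979, 386 per kb) and Lamtor1 (2565, 798 per kb). Lamtor2 was the highest of the list per kb at 1444, and Rragb was lowest on both scales (91, 40.3 per kb).

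The library is a mixture of cell types. The paper describes its VM-glial cultures as mostly GFAP-positive astrocytes, with a much smaller share of Iba1-positive microglia. The level of a marker list depends on the genes listed and does not measure the share of a cell type. Microglia markers were detected for 12 of 12 genes (425 to 31364 per kb, median 5080), astrocyte markers for 10 of 10 (67.6 to 4083 per kb, median 484) and mesenchymal markers for 8 of 8 (186 to 12067 per kb, median 743). Neuron markers were detected for 6 of 8 genes with a median of 8.05 per kb, and Slc17a6 was listed at 0. The oligodendrocyte list had 8 of 8 genes detected at a median of 162 per kb and the endothelial list 4 of 6 at 7.76 per kb. By all exons, the medians of the glycoprotein group (4878 per kb) and of the LAPTM genes (4940 per kb) were near the microglia median. Those of V0 (807) and V1 (587) were nearer the mesenchymal and astrocyte medians. The glycoprotein and LAPTM medians are the levels of Cd63 and Laptm5, which were 16195 and 14156 per kb by the coding transcript. Marker levels by that length are not given, so the nearness is described for all exons only. Single genes did not follow these medians. The LAPTM list has 3 genes, and Laptm4b (375 per kb) lay below all 12 microglia markers. In the glycoprotein group, Lamp2 (884) and Scarb2 (1242) lay well below the microglia median, and Cd68 (21928) and Lamp1 (13348) above it. The V1 median counts 3 paralogs at 0. The part of each cell type in the member levels was not tested.

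**Figure D4:**
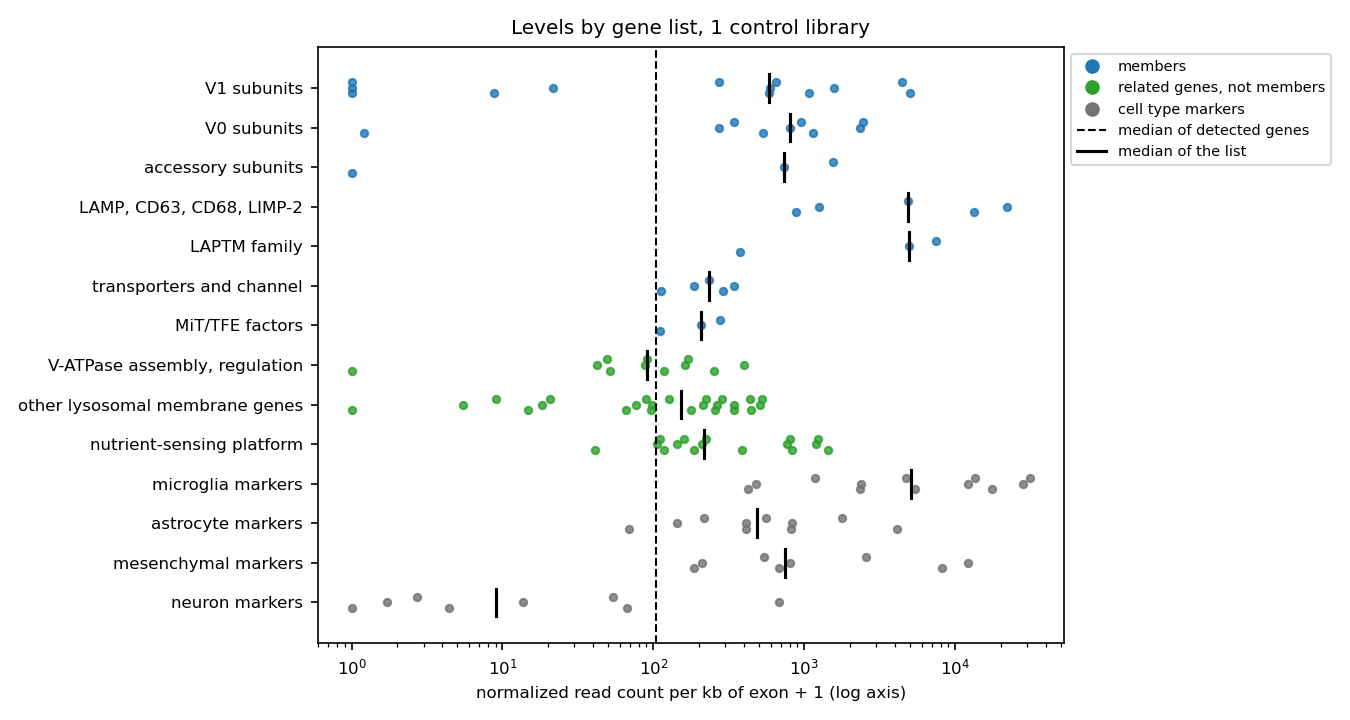
Levels by gene list in the control library, in normalized read counts per kb of exon plus 1 on a log axis. Each point is a gene, blue for the 41 genes described, green for related genes that are no members and grey for cell type markers. Black bars are list medians and the dashed line is the median of detected genes. By all exons, the length used here, the medians of the glycoprotein and LAPTM groups lie near that of the microglia markers, with single genes spread widely.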

How the data were processed

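Total RNA of VM-derived mixed glia was extracted with Trizol and 1 library was made with a SMARTer mRNA kit. Per the study's methods, reads were quality trimmed, mapped to GRCm38/mm10 with STAR and counted on RefSeq exons with HTSeq-count. The submitters' processing notes list TopHat and edgeR instead, without a role. The authors deposited normalized read counts per gene as whole numbers, which were treated here as a score, because the normalization was not given in the sources used here. Their sum was 27569507. Sequencing depth is therefore unknown, and no interval or detection floor is given.

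Exon lengths, coordinates and overlaps came from GENCODE M21 (GRCm38), matched by symbol or older symbol for 22900 rows (98.4%) and all 41 members. This annotation is not the one the authors counted on. Level per kb used the union of annotated exons. Promoters came from RefSeq. Similar transcripts were searched with BLAST 2.17.0. Scripts (Python 3.11.15, pandas 2.3.3) were tested on simulated data. With 1 library, no test was made. Members, lists and motifs were chosen with earlier results of these data known. Every member is named. Of other lists, the 3 highest genes by undivided value, the lowest and those at 0 are named, with every paralog of a subunit. Other genes, and Lamp1 as a promoter to print, were chosen after values were seen.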

Additional observations from a re-analysis of the deposited data

How the results depend on the processing

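Results were recomputed under 22 alternatives. With the detection minimum lowered to 1 or raised to 100, 37 and 34 members were detected. Of the 41 members, 32 to 34 were above the median of detected genes under the alternatives that kept all of them. Without the 11 genes that overlap another gene the count was 27, but out of fewer members. The share of all rows was not recomputed for these alternative counts of members, so they have no background beside them. The V1 minus V0 difference of -0.61 reversed to 0.01 without division by exon length. It was -0.68 with the longest transcript, -0.87 with the transcript of the longest coding sequence, -1.50 with summed paralogs and -0.54 without subunit c, whose row has a near-identical copy. The leading paralog was unchanged in 7 of 7 families without division by length and with the longest transcript and in 6 of 7 with the longest coding sequence, where Atp6v0a1 led Tcirg1. With the 6-letter or the 7-letter motif, 7 members held it in place of 5. The background share of TCACGTGA was 1.98% among detected genes. The members' share of the sum was 0.786% without the ribosomal RNA precursor Rn45s and 0.886% without the 10 highest genes. The alternatives with the longest coding sequence and without subunit c were chosen after seeing the data. The cause of the shifts was not tested. With 1 library, each value describes that library alone.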

Other observations

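The 8-letter motif TCACGTGA was also present in promoters of 4 related genes that are no members. Of 22 other lysosomal membrane channel and transporter genes with a promoter, 3 (13.6%) held it, namely Cd164, Clcn7 and Slc36a1, and of 7 assembly and regulation genes 1 (14.3%), Vma21, held it. None of 15 genes of the list for nutrient sensing and MiT/TFE control held the 8-letter motif. The 7-letter form was held by 6 of them (40%), namely Lamtor1, Lamtor4, Rragb, Rragc, Rheb and Fnip1. In all genes of the promoter table the 7-letter share was 4.29%, and among detected genes it was 6.48%. The lists are short, and these shares are descriptions without a test. As for the members, the motif was chosen for its known place in promoters of lysosomal genes.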
